A study of Mus musculus with 2 samples.

Results

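The regions described here are 5857 stretches of open chromatin that lie between genes and were listed as DNase peaks in the mouse thymus library labelled replicate 2, with no overlapping peak in the library labelled replicate 1. They were chosen from the 60644 peaks of the shorter peak list of replicate 2. Each lies over 1000 bp from every transcript start of the GENCODE vM21 annotation, has its midpoint outside all annotated genes, and shares no base with a peak in either of the 2 peak lists of replicate 1. Both shorter lists together hold 146011 peaks. In the text these regions are called unpartnered peaks, and the 9000 intergenic peaks of replicate 2 that do overlap a replicate 1 peak are called partnered peaks. The presence or absence of a peak in each library chose the regions, so those values are given as a description and without a test. With 1 library on each side, no test over libraries was possible for any value in this report.

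The libraries, 1 group of 2, are both labelled as thymus tissue and measured DNase hypersensitivity in male B6CASTF1/J mice, an F1 hybrid strain, at 36 days of age, with no treatment given in the labels. The labels number them as biological replicates 1 and 2 while giving 1 donor identifier for both. How many animals they stand for is thus unclear, and the spread between libraries may be technical. DNase-seq cuts nuclear DNA with the nuclease DNase I and sequences the ends of the cuts. A peak marks a stretch that was cut more often than its surroundings, and a footprint is a short protected stretch within one. Open stretches between genes often hold enhancers, where transcription factors bind and act on genes at a distance. Most cells of the young thymus are thymocytes, developing T cells that rearrange their receptor genes, carry the coreceptors CD4 and CD8, and depend on factors of the TCF, ETS, RUNX and E protein families.

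The libraries stood apart at genes of T cells. Bcl11b, a zinc finger factor needed for commitment to the T lineage, had 3 promoter peaks in replicate 2, the strongest with a signal of 9.04, and none in either list of replicate 1. Cd8b1, the beta chain of CD8, had 5 promoter peaks in replicate 2, the strongest at 10.2, and likewise none in replicate 1. Replicate 2 thus carried the thymocyte marks given for it at both genes. Of 21 genes of the T cell receptor and coreceptors, 20 had a promoter peak in replicate 2 and 5 in replicate 1, where those with none included Cd3d, Cd3e, Cd3g, Cd4, Cd8a, Lat and Zap70. Of 27 genes of thymocyte development, 25 had one in replicate 2 and 16 in replicate 1. T lineage transcription factors differed little, with 28 of 28 in replicate 2 and 26 of 28 in replicate 1, where Bcl11b and Fli1 had none. Pancreas genes ran the other way, with 5 of 20 promoters open in replicate 2 and 17 of 20 in replicate 1, where Gcg, Amy2a5 and Ins2 had none. All 16 housekeeping promoters had a peak in each library. Effector T cell genes had 8 of 19 promoters open in replicate 2 and 1 in replicate 1. In the same order, B cell genes had 7 and 6 of 14, and myeloid and dendritic genes 7 and 6 of 18. Erythroid genes had 5 and 4 of 10, and endothelial genes 6 and 3 of 12. Thymic epithelial genes had 7 and 10 of 16, and fibroblast and mural genes 5 and 5 of 12. Liver genes had 2 and 5 of 11, neuron genes 8 and 9 of 12, and muscle genes 3 and 4 of 12. The share over all genes was not counted. Within replicate 2 the promoter signal summed to 123 over the receptor and coreceptor list, 12.9 over the pancreas list and 258 over the housekeeping list. Within replicate 1 it summed to 12.6 over the receptor and coreceptor list, 86.8 over the pancreas list and 118 over the housekeeping list. How the authors scaled each library is not known here, so these sums are to be read within a library. At receptor, coreceptor and pancreas genes the library labelled replicate 1 went against its thymus label, and what it holds is in doubt. Each statement below that a region had no replicate 1 peak is therefore one about that library and not about a second thymus as such. The part of this difference in the results was not tested. In bulk tissue, fewer cells of a type and less opening per cell cannot be told apart.

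Sequences of 6 unpartnered peaks are shown to let their content be read beside the counts of motifs that follow. The first 2 hold letters of the ETS family, the next 2 of the RUNX family, and the fifth of E proteins alone. The last holds none of the 4 motifs marked, and is the strongest of those assigned to the gene with most unpartnered peaks. Bases are those of the plus strand of GRCm38.p6 from RefSeq, which follows the C57BL/6J parent, so alleles of the other parent of the hybrid are not shown. Capitals mark matches, on either strand, to CAGGAAG or CCGGAAG (ETS), TGTGGTT or TGCGGTT (RUNX), CTTTGAT or CTTTGTT (TCF/LEF), and CAGCTG or CACCTG (E protein). A match describes letters, not a bound site.
Lrrc8c peak, chr5:105648701-105648940: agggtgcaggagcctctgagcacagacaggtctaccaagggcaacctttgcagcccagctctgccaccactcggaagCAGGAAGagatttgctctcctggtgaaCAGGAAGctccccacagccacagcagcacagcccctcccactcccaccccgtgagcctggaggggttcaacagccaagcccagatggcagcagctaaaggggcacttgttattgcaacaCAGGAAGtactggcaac
Rbm38 peak, chr2:173046621-173046900: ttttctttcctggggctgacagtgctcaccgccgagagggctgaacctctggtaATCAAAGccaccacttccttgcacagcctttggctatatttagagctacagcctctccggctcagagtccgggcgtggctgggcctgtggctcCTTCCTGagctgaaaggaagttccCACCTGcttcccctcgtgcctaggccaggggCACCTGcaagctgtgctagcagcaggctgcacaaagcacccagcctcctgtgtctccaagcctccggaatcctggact
Dnah2 peak, chr11:69418521-69418740: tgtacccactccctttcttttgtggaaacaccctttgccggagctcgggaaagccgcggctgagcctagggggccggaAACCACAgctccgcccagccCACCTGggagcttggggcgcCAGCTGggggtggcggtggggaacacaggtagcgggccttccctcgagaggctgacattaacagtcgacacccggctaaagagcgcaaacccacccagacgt
Cd8b1 peak, chr6:71341281-71341420: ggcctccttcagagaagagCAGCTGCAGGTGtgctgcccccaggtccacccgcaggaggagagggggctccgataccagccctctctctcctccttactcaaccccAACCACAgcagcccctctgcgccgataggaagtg
Vdac1 peak, chr11:52339561-52339820: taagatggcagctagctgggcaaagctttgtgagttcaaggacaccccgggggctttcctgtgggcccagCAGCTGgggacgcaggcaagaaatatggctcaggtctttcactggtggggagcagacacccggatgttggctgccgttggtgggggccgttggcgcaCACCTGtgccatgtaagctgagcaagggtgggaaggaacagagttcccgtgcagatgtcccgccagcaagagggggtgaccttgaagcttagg
3110018I06Rik peak, chr12:107124381-107124660: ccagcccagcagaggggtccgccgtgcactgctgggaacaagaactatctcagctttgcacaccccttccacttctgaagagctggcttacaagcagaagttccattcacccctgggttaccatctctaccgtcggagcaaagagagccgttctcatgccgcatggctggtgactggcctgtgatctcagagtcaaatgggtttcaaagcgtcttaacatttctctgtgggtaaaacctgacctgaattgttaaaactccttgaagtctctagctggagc

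The Lrrc8c peak had the highest signal of all 5857 unpartnered peaks, at 10, and holds 3 ETS matches, each spelled CAGGAAG. It lies 35.8 kb downstream of Lrrc8c, which encodes a subunit of volume-regulated anion channels, and overlapped 5 footprints of replicate 2. The Rbm38 peak, with a signal of 5.64, holds 1 ETS, 1 TCF/LEF and 2 E protein matches, and no RUNX match. In the Dnah2 peak, with a signal of 9.89, and the Cd8b1 peak, with a signal of 6.62, a RUNX match spelled AACCACA on the strand shown stands with 2 E protein matches each. The Vdac1 peak (signal 7.12) holds 2 E protein matches and nothing of the other 3 families. The peak assigned to 3110018I06Rik (signal 4.68), which lies 364 kb away from that gene, holds none of the 4 and overlapped 5 footprints.

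Intergenic peaks went without a partner more often than peaks of replicate 2 as a whole. Of its 14857 intergenic peaks, 39.4% were unpartnered (Wilson 95% interval 38.6 to 40.2%), against 33.4% of all 60644 peaks. The share was 19.3% among peaks at promoters and 47.6% among peaks inside genes, so the places between genes stood in the middle. All such intervals cover counting only, since depth is unknown, neighbouring regions are not independent, and reads copied by PCR are not independent molecules. The mirrored choice gave 12227 intergenic peaks of replicate 1 with no replicate 2 peak, 56.4% of its 21686. Of all 85367 peaks of replicate 1, 50.6% had no replicate 2 peak. The places stood in the same order there, with 33.6% at promoters and 64.8% inside genes. Unpartnered peaks had a median width of 184 bp, against 180 bp for partnered peaks. Some listed peaks overlap each other, and merging left 5761 separate regions.

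Unpartnered peaks were weaker than partnered ones within the same library. Their signal, on the authors' scale for replicate 2, ranged between 0.0693 and 10, with a median of 1.02 (order-statistic 95% interval 1 to 1.04), against a median of 1.76 (1.73 to 1.81) and a highest value of 42.9 for partnered peaks. The distributions overlapped widely, as the histogram of signal shows. With all intergenic peaks of replicate 2 ordered by signal and cut into 10 bands of equal size, 55.9% of the weakest band and 56.7% of the next were unpartnered. The share then fell in every further band, to 18.7% in the ninth and 8.55% in the strongest. Strong unpartnered peaks were therefore a minority, yet the strongest band still held 127 of them.

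**Figure D1:**
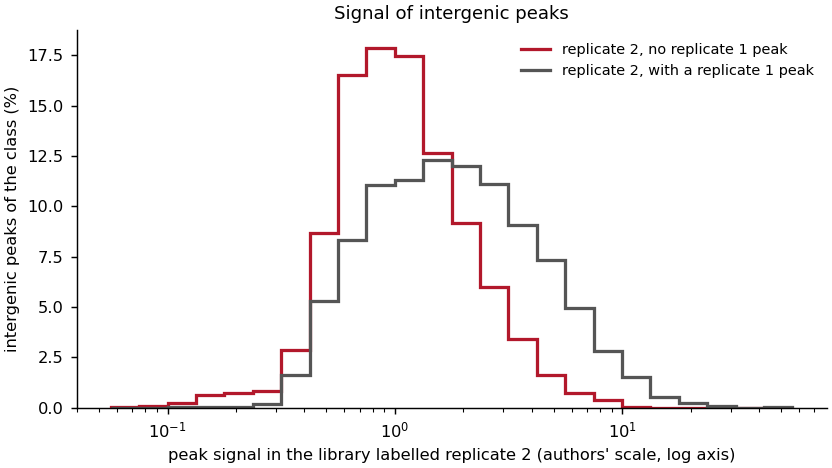
Signal of intergenic peaks in the library labelled replicate 2, on a log axis in the authors' units. The lines give the percent of each class in bins of equal width on that axis, for 5857 peaks with no replicate 1 peak and 9000 with one. The medians are 1.02 and 1.76, and the classes overlap over most of the range.

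Absence of a peak was mostly absence of any listed interval. The deposited false discovery rate (FDR) table of replicate 1 lists only intervals with an FDR below 0.05, and 313 unpartnered peaks (5.34%) touched such an interval, 147 of them (2.51%) below 0.001. Regions 2 kb to either side, which were not chosen for lacking a replicate 1 peak, touched a listed interval in 6.51% of cases and one below 0.001 in 4.55%. Since the choice of unpartnered peaks bears on this table, these values are descriptions. The median gap to the nearest replicate 1 peak was 5.29 kb, but 199 unpartnered peaks had one within 100 bp and 1000 within 1000 bp. Of these, 20 abut a replicate 1 peak. The strongest of the 20, with a signal of 9.35, was assigned to Rps6ka1, a gene for a ribosomal S6 kinase, and touches an interval with an FDR of 1.43e-88 there. At the other limit of the choice, the unpartnered peak nearest to a transcript start lies 1001 bp away, and the intergenic peak just outside the limit lies 997 bp away.

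Footprints of replicate 2 overlapped 4978 unpartnered peaks, or 85% (84.1 to 85.9%), against 96.4% of partnered peaks. Footprints of replicate 1 overlapped 50 unpartnered peaks, or 0.854%. Across the 4 signal bands of equal size among unpartnered peaks, the share with a replicate 2 footprint was 66.9%, 84.8%, 90.9% and 97.3%, weakest to strongest. Protected stretches were thus found in most of these peaks, and in nearly all of the stronger ones, in the library that listed them. Footprints and peaks came from the same alignment, so this is no independent measure.

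Relative to genes, unpartnered peaks lay farther out than partnered ones. The median distance between a peak's midpoint and the nearest edge of the nearest protein-coding gene was 21.9 kb (20.9 to 22.9 kb) for unpartnered peaks, 13 kb (12.6 to 13.5 kb) for partnered peaks and 27.1 kb (26.2 to 28.2 kb) for replicate 1 peaks alone. Within 10 kb of a gene lay 31.6% of unpartnered peaks, 42.9% of partnered peaks and 29.9% of replicate 1 peaks alone. Only 64 unpartnered peaks (1.09%) lay over 500 kb away, the farthest at 1417 kb. The base content of unpartnered peaks was close to that of partnered peaks, with 52.3% G and C in the central 200 bp, against 52.1% in partnered peaks and 45.9% in windows 1 kb to either side of the unpartnered peaks. Their median share of repeat-masked bases was higher, at 9.09% against 1.95% in partnered peaks, and 564 (9.63%) were masked over 50% or more of their length, against 7.09%.

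By chromosome, unpartnered peaks numbered 7.86 per Mb of intergenic sequence on chromosome 11, the densest. They numbered 0.964 per Mb on chromosome X and 0.119 per Mb on chromosome Y, the sparsest, both present in 1 copy in these male mice. Read as a share of all intergenic peaks of replicate 2 on the chromosome, the order differed, with 37.7% unpartnered on chromosome 11, 28.9% on chromosome X and 62.5% on chromosome Y, where 10 peaks were unpartnered, against 39.4% overall.

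Letters of the ETS family, whose members Ets1 and Fli1 act in T cell development, were more common in unpartnered peaks than in every other class searched. CAGGAAG or CCGGAAG occurred in the central 200 bp of 27.6% of unpartnered peaks (26.5 to 28.8%), against 13.7% of partnered peaks (13 to 14.5%), 10.1% of replicate 1 peaks alone (9.53 to 10.6%) and 9.01% of windows 1 kb away from the unpartnered peaks. The share was thus 3.07 times that of the surroundings and 2.01 times that of partnered peaks. The same letters reversed without complementing, which keep the base content, occurred in 5.21% of unpartnered peaks and 5.27% of the windows 1 kb away. PU.1, an ETS factor of early progenitors, myeloid and B cells, was searched by GAGGAAGT, which shares its GGAAG core with the ETS letters. It occurred in 5.86% of unpartnered peaks, 1.78% of partnered peaks and 1.54% of replicate 1 peaks alone, and at 3.9 times the share 1 kb away gave the highest ratio among motifs with at least 100 matching peaks. Its reversed form gave a ratio of 1.41.

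RUNX factors, of which Runx1 and Runx3 direct steps of thymocyte development and silence Cd4, gave a like picture. TGTGGTT or TGCGGTT was found in 13% of unpartnered peaks (12.2 to 13.9%), 6.42% of partnered peaks, 5.2% of replicate 1 peaks alone and 5.9% of windows 1 kb away, a ratio to those windows of 2.21, against 0.926 for the reversed letters. ETS and RUNX letters stood together in 3.35% of unpartnered peaks, 1.02% of partnered peaks and 0.54% of replicate 1 peaks alone. E protein letters were common everywhere, in 43.6% of unpartnered peaks, 34.6% of partnered peaks, 41.6% of replicate 1 peaks alone and 22.8% of windows 1 kb away, a ratio to those windows of 1.91, against 0.807 reversed. CAGCTG and CACCTG are read by many basic helix-loop-helix factors in many tissues, and here they did not separate the unpartnered peaks of the libraries as ETS and RUNX letters did.

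Among other letters searched, those of TCF/LEF, GATA, NFAT, nuclear receptors and Ikaros differed less from the surroundings than ETS and RUNX letters. TCF/LEF letters, read by the proteins of Tcf7 and Lef1, were in 8.91% of unpartnered peaks (8.21 to 9.67%), 6.44% of partnered peaks, 8.99% of replicate 1 peaks alone and 8.09% of windows 1 kb away. Their ratio to those windows was 1.1, against 0.744 for the reversed letters. GATA letters (AGATAA), the target of Gata3, were in 7.6% of unpartnered peaks, 6.9% of partnered peaks, 13.2% of replicate 1 peaks alone and 9.99% of windows 1 kb away. Their ratio to those windows was 0.761, against 0.501 for the reversed letters. NFAT letters (TGGAAA) had a ratio of 0.773, against 0.778 reversed, and the nuclear receptor element AAGGTCA or TAGGTCA one of 0.846, against 0.789 reversed. NFAT letters were in 13.2% of unpartnered peaks, 16.9% of partnered peaks and 20.9% of replicate 1 peaks alone. Ikaros letters (TGGGAA) were in 16.8%, 19.8% and 25.4%, in the same order, and in 18.1% of windows 1 kb away. Reversed letters of TCF/LEF, GATA, NFAT and the receptor element were each less common in unpartnered peaks than 1 kb away. The letters themselves were less common there for GATA, NFAT and the receptor element, but not for TCF/LEF. SP/KLF letters (GGGGCGG) had a ratio of 3.34 to the windows 1 kb away, beside 2.82 for the same letters reversed. The unpartnered windows held more G and C than those 1 kb away, as given above, and the part of base content in these ratios was not tested.

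CTCF, the factor that anchors chromatin loops in most cell types, had the lowest ratio of unpartnered to partnered peaks among motifs found in both. Its motif was in 64 unpartnered peaks, or 1.09% (0.857 to 1.39%), against 17.4% (16.7 to 18.2%) of partnered peaks and 2.63% of replicate 1 peaks alone. It was still more common than in windows 1 kb away, at 0.324%, a ratio of 3.37. Its reversed letters were in 0% of unpartnered peaks. A gap to partnered peaks was also present within bands of the same signal range, though signal inside a band was not matched. Across 4 bands of unpartnered signal, weakest to strongest, CTCF letters were in 1.09%, 1.57%, 1.16% and 0.546% of unpartnered peaks, against 13.1%, 14%, 15% and 20.6% of partnered peaks in the same bands. FOX letters (TGTTTAC) were in 2.48% of unpartnered peaks and 5.23% of replicate 1 peaks alone. NR5A2 letters (TCAAGGTCA, which contain the receptor element AAGGTCA) were in 0.324% of unpartnered peaks and 1.08% of replicate 1 peaks alone. The receptor element AAGGTCA or TAGGTCA was in 4.99% and 9.23%, in the same order.

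**Figure D2:**
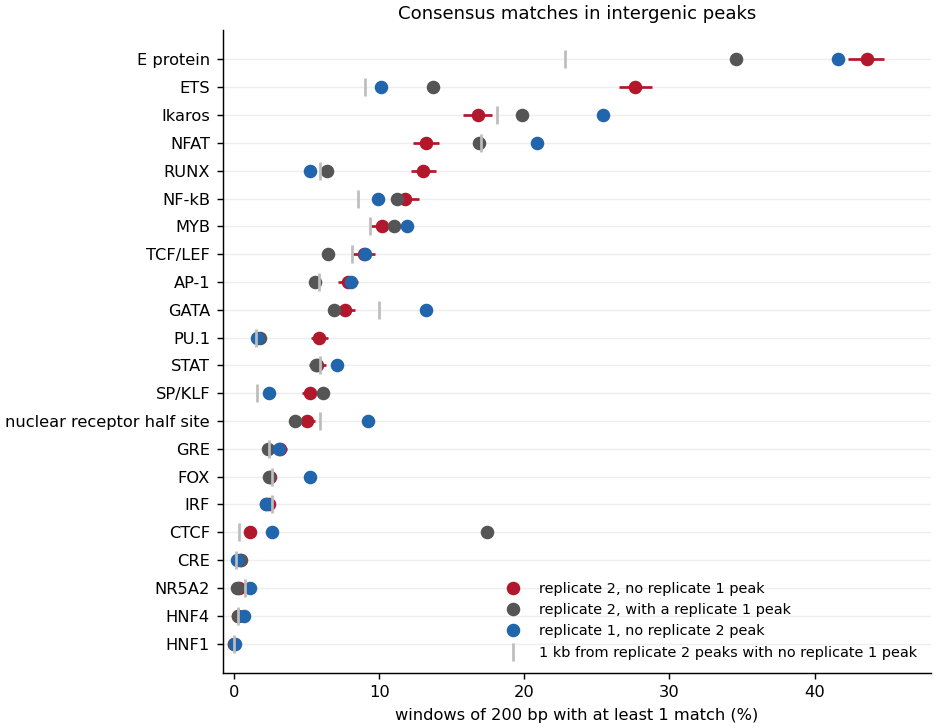
Percent of 200 bp windows with at least 1 match to each of 22 consensus motifs, on both strands, in intergenic peaks. Points stand for peaks of replicate 2 with no replicate 1 peak (horizontal bars, Wilson 95% intervals), for peaks of replicate 2 with one and for peaks of replicate 1 alone, and ticks for windows 1 kb from the first class. ETS (27.6%), RUNX (13%) and PU.1 (5.86%) lie right of the other 3 values, and CTCF (1.09%) lies far left of the 17.4% in peaks with a partner.

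Stronger unpartnered peaks held ETS and E protein letters more often. Across the 4 bands of their signal, weakest to strongest, ETS letters were in 21.4%, 27.3%, 28.5% and 33.3%. RUNX letters were in 11.9%, 11.4%, 13.3% and 15.5%. Partnered peaks in the same bands had ETS letters in 12.1%, 12%, 13.3% and 14.5%, so the classes differed in each band. Signal inside a band was not matched between the classes. Footprints covered 13.2% of the bases in the 200 bp windows of unpartnered peaks, and 16% of ETS matches, 25.8% of RUNX matches and 70.3% of CTCF matches lay in one. For GATA letters that share was 7.42%, below the share of bases.

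The matches gathered at the middle of the peaks. ETS letters reached 1.97 matches per kb in the bin just left of the midpoint of unpartnered peaks, against 0.853 in partnered peaks and 0.582 in replicate 1 peaks alone. In the bin farthest to the left they reached 0.591 in unpartnered peaks, 0.458 in partnered peaks and 0.463 in replicate 1 peaks alone. RUNX letters left of the midpoint reached 0.891 in unpartnered peaks, 0.407 in partnered peaks and 0.288 in replicate 1 peaks alone. That last value was no higher than the 0.293 at the far left of the same class. E protein letters peaked in all 3 classes, and TCF/LEF letters in none.

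**Figure D3:**
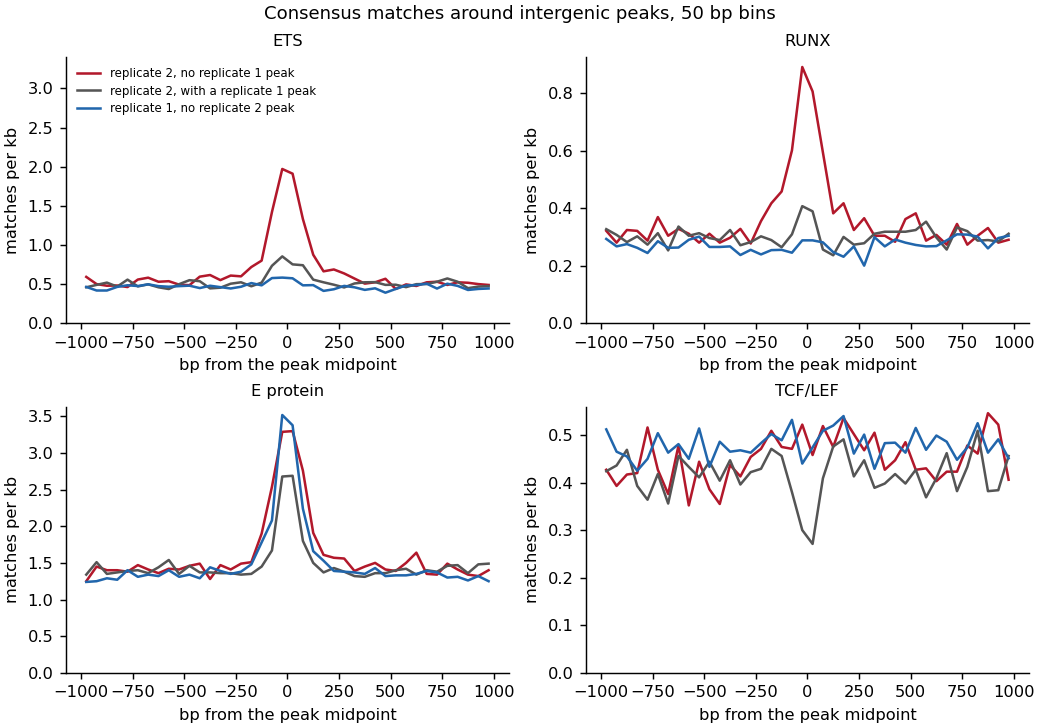
Matches per kb of sequence in 50 bp bins by distance from the peak midpoint (bp), for 4 motifs in 3 classes of intergenic peaks. ETS and RUNX letters rise at the centre of replicate 2 peaks with no replicate 1 peak to 1.97 and 0.891 matches per kb, while TCF/LEF letters show no central rise in any class.

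Unpartnered peaks were assigned to the nearest protein-coding gene, which is a label of place and not of regulation. They reached 2791 of 21938 protein-coding genes (12.7%), while replicate 1 peaks alone reached 4993 (22.8%). Of the genes reached, 1613 had a single unpartnered peak, and 51 genes had 10 or more, together 739 peaks (12.6%). Of those 51, 16 had no intergenic peak of replicate 1 alone.

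Tcf7, which encodes TCF-1, a factor that starts the T cell programme in early thymic progenitors, was nearest to 27 unpartnered peaks with signals between 0.354 and 4.65. They lay 3.58 to 35.6 kb upstream of the gene, on chromosome 11, beside 2 partnered peaks and none of replicate 1 alone. Next to them lay the 19 unpartnered peaks nearest to Vdac1, the gene of a channel in the outer mitochondrial membrane, with signals of 0.293 to 7.12. Chained at gaps of at most 20 kb, these formed the largest cluster, 46 unpartnered peaks in 62.7 kb (chr11:52286341-52349000), a stretch that held 50 peaks of replicate 2 and 3 of replicate 1. Lef1, a relative of Tcf7 with overlapping function, was nearest to 23 with signals of 0.701 to 5.38, lying 2.48 to 166 kb upstream, with 4 partnered peaks and 2 of replicate 1 alone. The sequences around both TCF family genes were thus among those with most unpartnered peaks.

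Zfp36l2, which encodes a protein that binds AU-rich mRNA and speeds its decay, was nearest to 20, with signals of 0.254 to 9.62, lying up to 122 kb away, and 16 partnered peaks lay there too. Rbm38, the gene of another RNA-binding protein, was nearest to 19 with signals of 0.393 to 5.64. Of these, 18 stood in 16 kb downstream of the gene (chr2:173046621-173062580), a stretch with no replicate 1 peak. Cd8b1 was nearest to 14 with signals between 0.624 and 6.62 and a median of 1.07, all 0.337 to 14.4 kb downstream of the gene (chr6:71337721-71351906) in a stretch with 20 replicate 2 peaks and no replicate 1 peak. That stretch lies on the side of Cd8a, the gene of the other CD8 chain, which was nearest to 6 weaker ones with signals of 0.0848 to 0.824. The other marker, Bcl11b, was nearest to only 4, with signals of 0.717, 1.1, 1.22 and 1.6, beside 2 partnered peaks and 1 of replicate 1 alone.

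**Figure D4:**
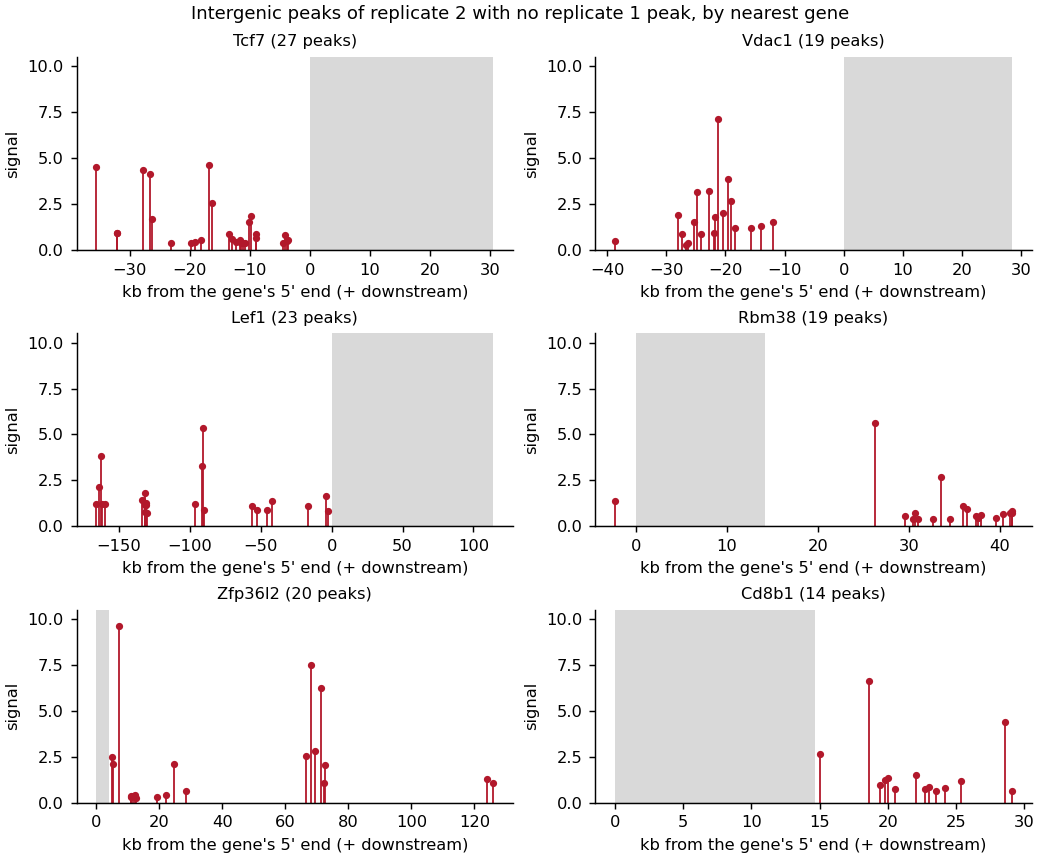
Intergenic peaks of replicate 2 with no replicate 1 peak, for 6 nearest genes. The horizontal axis gives kb from the gene's 5′ end, with positive values downstream, the shaded block is the gene, and each stem is 1 peak with its signal in the authors' units. Peaks of Tcf7, Vdac1 and Lef1 lie upstream of the gene, those of Cd8b1 and Zfp36l2 downstream, and those of Rbm38 downstream but for 1.

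A wide stretch downstream of Bcl11b held many more. The gene nearest to most unpartnered peaks was 3110018I06Rik, on chromosome 12, with 42 of them, signals of 0.493 to 4.68 and distances of 7.49 to 686 kb, beside 1 partnered peak and 1 of replicate 1 alone. Between 500 and 1000 kb downstream of the 5′ end of Bcl11b lay 37 unpartnered peaks with a highest signal of 4.68, against 1 peak of replicate 1 alone. Of these, 23 formed a cluster of 29.2 kb (chr12:107117601-107146780) that spans the lincRNA gene Gm16085 and held 26 replicate 2 peaks and no replicate 1 peak. A far downstream enhancer region of Bcl11b is known in mouse T cells, and the nearest-gene rule gives no peak of this cluster to Bcl11b.

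Other genes with most unpartnered peaks stood beside wide gene-poor stretches or antigen receptor loci. Zfp386, a zinc finger gene, was nearest to 20 with signals of 0.354 to 2.41, which lay 276 to 1228 kb away on the side of the immunoglobulin heavy chain locus. That locus held 29 unpartnered peaks with a highest signal of 2.41, against 4 peaks of replicate 1 alone. Dad1, the gene of an oligosaccharyltransferase subunit, lies beside the T cell receptor alpha locus, and the stretch between them is known to hold control elements of that locus. It was nearest to 20 with signals of 0.786 to 6.16, of which 12 lay within 20 kb downstream of Dad1 and 8 farther out, the strongest of these at 2.68. The alpha and delta locus held 13 unpartnered peaks, with a highest signal of 2.68, against 2 of replicate 1 alone, and the gamma locus 2 against 0. In the beta locus, which encloses trypsinogen genes, the order turned, with 1 unpartnered peak against 19 of replicate 1 alone. That peak had a signal of 5.13 and was assigned to the trypsinogen gene Prss2, one of only 2 genes of the pancreas list with any. The kappa light chain locus held 1 against 10, and the lambda locus had none of either class. Trpm1, a cation channel gene of retina and pigment cells, was nearest to 29, most of them weak with a median signal of 0.208 and a highest of 3.21, and Sall3, a zinc finger gene, to 22 with signals of 0.616 to 3.84.

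Chains at gaps of at most 20 kb gave 3496 clusters in all. Of the unpartnered peaks, 2321 (39.6%) stood alone, and 932 (15.9%) were in the 121 clusters of 5 or more. The 25 of the second largest cluster lay near Trpm1, and 16 lay in 45.3 kb near Arsi and Tcof1 on chromosome 18. Between Sema7a, which encodes a membrane-anchored semaphorin, and Cyp11a1, the first enzyme of steroid synthesis, 15 lay in 24.8 kb with a highest signal of 6. Near Ankrd46, 15 were found with a highest signal of 2.26. Near Supt4a and Tspoap1, 13 with a highest signal of 9.86 and a median of 2.31 lay within 13.9 kb that contain Mir142, the gene of a miRNA of blood cells, with 18 replicate 2 peaks and no replicate 1 peak. Near Srp14, a signal recognition particle gene, 13 with a highest signal of 9.32 stood with 3 partnered peaks.

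The 10 strongest unpartnered peaks had signals of 9.05 to 10. After Lrrc8c and Dnah2, an axonemal dynein gene, they lay nearest to Supt4a (9.86), Zfp36l2 (9.62), Fam167b (9.45), the ubiquitin ligase gene Trim33 (9.45), Rps6ka1 (9.35), Srp14 (9.32), the splicing factor gene Smndc1 (9.31) and the interleukin-21 receptor gene Il21r (9.05). Each overlapped at least 3 footprints of replicate 2, and the Rps6ka1 peak alone among them overlapped one of replicate 1. The Dnah2 peak touched an interval with an FDR of 3.84e-06 in replicate 1, and the other 8 touched none. The Fam167b peak (chr4:129575301-129575460) lies 1.43 kb from Fam167b and also close to the 5′ end of Lck (chr4:129573641). Lck is a gene of the T cell receptor and coreceptor list to which no unpartnered peak was assigned.

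Lists of cell type genes showed where the assigned genes fell. Of 75 genes in the 3 T lineage lists, 45 (60%, 48.7 to 70.3%) were nearest to an unpartnered peak, against 12.7% of all protein-coding genes, and 28 (37.3%) were nearest to a replicate 1 peak alone, against 22.8% of all. These 45 genes took 229 unpartnered peaks, 3.91% of all of them, while T lineage genes took 108 replicate 1 peaks alone, 0.883% of those. T lineage genes also took 92 of the 9000 partnered peaks. All 14857 intergenic peaks of replicate 2 together reached 68% of T lineage genes (56.8 to 77.5%). Genes reached by partnered peaks were not counted apart, so the reach is not shown to be particular to unpartnered peaks. Among 28 T lineage transcription factors, 21 (75%) had an unpartnered peak and 16 a replicate 1 peak alone. Besides Tcf7 and Lef1 these included Foxo1, a regulator of survival and homing genes, with 14 (signals 0.693 to 4.55, and 10 of replicate 1 alone), and Ets1 with 12 (0.786 to 3.07, and 2 of replicate 1 alone).

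Among 21 T cell receptor and coreceptor genes, 10 had an unpartnered peak and 2 a replicate 1 peak alone. After Cd8b1, the adhesion receptor gene Cd2 had 9 with signals of 0.886 to 4.41, and the adaptor gene Lat had 4 with signals of 1.01 to 2. Among 27 genes of thymocyte development, 14 had an unpartnered peak and 10 a replicate 1 peak alone. Cxcr4, a chemokine receptor gene of cortical thymocytes, had 17 with signals of 0.378 to 3.69, beside 10 of replicate 1 alone. Ccr7, the receptor gene that guides positively selected cells to the medulla, had 5 with signals of 1.36 to 6.38 and none of replicate 1 alone. Egr1, induced by receptor signalling, and S1pr1, the receptor gene for leaving the thymus, had 3 each. Genes of effector T cells, used mainly after activation, had an unpartnered peak in 11 of 19 cases and a replicate 1 peak alone in 10, among them Fasl with 5, Il2ra with 4, and Gzmb and Eomes with 3 each.

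Lists of other cell types had shares on both sides of the 12.7% of all genes, with at most 9 unpartnered peaks in any such list. An unpartnered peak was nearest to 3 of 14 B cell genes (21.4%), 2 of 18 myeloid and dendritic genes (11.1%) and 4 of 10 erythroid genes (40%). Among genes of the thymic framework, unpartnered peaks reached 4 of 16 thymic epithelial genes (25%), where replicate 1 peaks alone reached 10. They reached 5 of 12 endothelial genes (41.7%), led by Cdh5 of vascular junctions with 4, where replicate 1 peaks alone reached 7. They reached 2 of 12 fibroblast and mural cell genes (16.7%), where replicate 1 peaks alone reached 5. These 2 genes were Thy1, with 2 of signals 0.894 and 1.37, and Col1a2, with 2 of signals 0.516 and 0.632 that lay 107 kb away. Thy1 is used by thymocytes as well, so its peaks do not stand for fibroblasts or mural cells alone. The pancreas list showed the reverse of the T lineage lists, with 2 of 20 genes (10%) nearest to an unpartnered peak and 15 of 20 (75%) nearest to a replicate 1 peak alone. Its 2 genes were Nr5a2, with 5 of signals 0.47 to 1.75, and Prss2, with 2 of signals 3 and 5.13. Liver genes had 2 of 11 in each class. Unpartnered peaks reached 1 of 12 neuron genes and 0 of 12 skeletal muscle genes, against 4 and 1 for replicate 1 peaks alone. Housekeeping genes had 4 of 16 in each class (25%), led by Actb with 5 unpartnered peaks, so a share of that size also arose at genes used by every cell. Genes with more intergenic sequence around them can collect more peaks, and the counts were not adjusted for it.

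**Figure D5:**
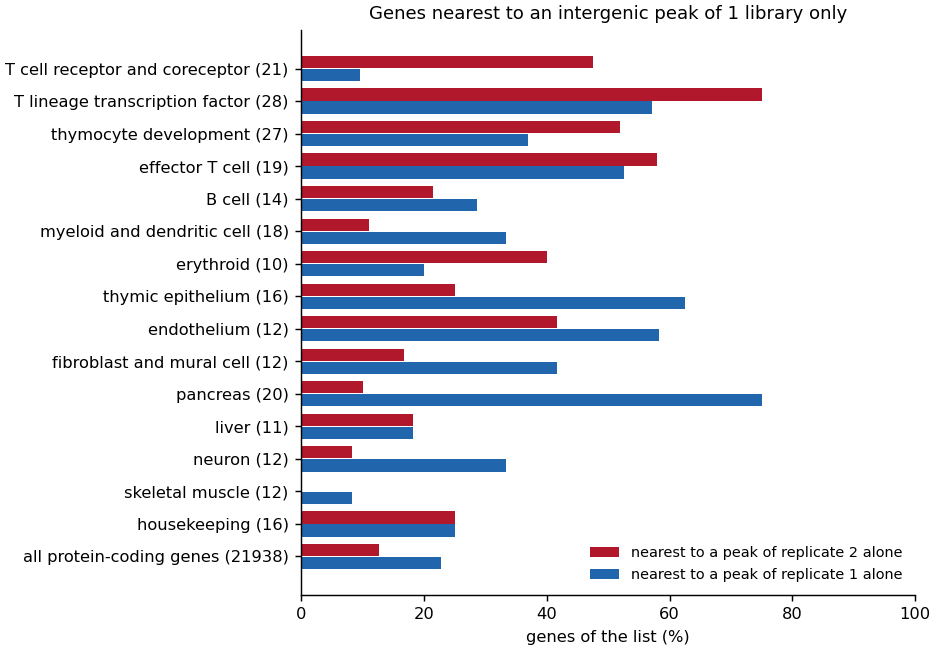
Percent of the genes in each of 15 lists, and of all protein-coding genes, that are the nearest gene of at least 1 intergenic peak found in 1 library only, with the number of genes in brackets. Red bars are peaks of replicate 2 alone and blue bars peaks of replicate 1 alone. T lineage transcription factors stand at 75% for replicate 2 and the pancreas list at 75% for replicate 1, beside 12.7% and 22.8% of all genes.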

How the data were processed

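DNase-seq peaks, footprints and false discovery rates of 2 libraries labelled thymus were used as the authors deposited them. Per the labels reads were placed on mm10. Per the deposited notes, each list was made from the filtered alignment of its own library, with no pooling. The deposited peak lists give a signal per peak on an undocumented scale. The deposited FDR tables give a false discovery rate per interval, listed below 0.05. The deposited footprint lists give a score that was the same in every row and was not used. For the aligner, callers, thresholds and signal scale, names and settings were not given in the sources used here. Depth is unknown.

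The rule was applied in Python 3.11.15 with numpy 2.4.6, pandas 2.3.3 and scipy 1.17.1 and tested on simulated data. Transcript starts and genes were those of GENCODE vM21 (141730 starts, 21938 protein-coding genes). Overlap meant 1 bp. Motifs were searched on both strands in 200 bp around the midpoint, and again 1 kb to either side. Letters of the CTCF motif and of other long motifs are not spelled out.

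The regions, the 15 gene lists, the 22 motifs and the named items were chosen with earlier results of these data known. Named were the 10 genes nearest to most of the regions, up to 4 genes per list, the 10 strongest regions, the 10 largest clusters, and motifs with the 5 highest and 3 lowest ratios to the surroundings. CTCF, TCF/LEF, Ikaros, FOX and NR5A2 fall outside that rule and were added after their values were seen. No fit and no test was made, since each side has 1 library.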

Additional observations from a re-analysis of the deposited data

How the results depend on the processing

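Of 84 values under alternative choices, 56 stayed within 1 interval of the reported value or, for the count, within 1.5 times it, and 28 moved. The count of unpartnered peaks was 1343 with the stronger 50% of replicate 2 peaks and 12781 with the longer list. Their median signals were 2.43 and 0.586, the median distances 19.2 and 27.1 kb, the shares with a footprint 97.6% and 68.4%, the shares of T lineage genes reached 34.7% and 70.7%, the ETS shares 32.9% and 22.3%, and the RUNX shares 16% and 10.3%, in the same order. Without replicate 1, which leaves all intergenic peaks of replicate 2, the count was 14857, the signal 1.36 and the distance 15.9 kb. The footprint share was then 91.9%, the share of T lineage genes reached 68%, the ETS share 19.2% and the RUNX share 9.02%. Without replicate 2 no region is left.

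The distance was 23.8 kb over 2500 bp from transcript starts, 24.7 kb with protein-coding annotation alone and 33.1 kb to the nearest 5′ end. The footprint share was 86% against the shorter list of replicate 1 alone, 83.4% for footprints wholly inside the peak and 87.2% with no replicate 1 peak within 1 kb. Searching 100 bp gave ETS 16.5% and RUNX 7.6%. The choices of no replicate 1 peak within 1 kb and of no listed replicate 1 interval were added after seeing the data.

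No paired analysis was possible because each side of the comparison has 1 library. Depth is unknown, so absence of a replicate 1 peak means that none was listed, not that the region was closed.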
